A study of Homo sapiens with 11 samples.

Results

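The integrated stress response regulators described here were 10 genes chosen by symbol, namely ATF4 with its transcription factor partners ATF3, ATF5, DDIT3, CEBPB and CEBPG, its feedback regulators TRIB3 and PPP1R15A, and its effectors CHAC1 and NUPR1. Each symbol was found once among the 58735 genes of the deposited count table, and all 10 were among the 18368 genes with enough counts to be tested. Poly(A) RNA was sequenced from HEK293T, a human embryonic kidney line that carries the SV40 large T antigen, 48 h after transfection. The groups were siRNA against NAE1 at 50 nM (siNAE1, n = 3), against UBE2M at 70 nM (siUBE2M, n = 3) and against URM1 at 60 nM (siURM1, n = 2), and a control siRNA whose concentration the labels do not give (n = 3). NAE1 is a subunit of the enzyme that activates the ubiquitin-like protein NEDD8, UBE2M is a NEDD8 conjugating enzyme, and URM1 is a ubiquitin-like protein that also carries sulfur for tRNA thiolation. The study's methods name a non-targeting siRNA as the negative control, while its supplement abbreviates the control HKWT, which may stand for wild type. It is therefore not certain that control cells were transfected, and an effect of transfection on the differences from control was not tested. The series asked which genes URM1 and these enzymes regulate. Each target was silenced with a single siRNA product, and the concentrations differed, so the loss of a target, its siRNA and its concentration cannot be told apart.

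In the integrated stress response, kinases such as PERK and GCN2 phosphorylate the translation factor eIF2, which lowers general protein synthesis and favours translation of a few messengers with upstream open reading frames. ATF4, a basic leucine zipper (bZIP) activator, is the best known of these and is set mainly at the level of translation and protein turnover. ATF4 pairs with other bZIP proteins, including C/EBP family members, and induces genes of amino acid supply together with its own feedback regulators. RNA-seq measures the messengers of these genes and not their proteins or the phosphorylation of eIF2.

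Total counts per library ranged from 11733163 to 16321391. Levels are given as CPM, the count of a gene scaled to the size of its library (TMM scaling), and differences as log2 fold changes ± standard error (SE) from edgeR's quasi-likelihood test. NAE1 CPM was 98.9 to 109 in control and 35.2 to 42.6 in siNAE1 libraries, UBE2M was 263 to 268 and 15.6 to 19.1 in siUBE2M, and URM1 was 51.0 to 55.4 and 15.2 to 15.5 in siURM1. Of 5 genes marking HEK293 cells, all 5 were detected, and 4 liver markers of HepG2 cells had at most 9 counts in any library. The labels call the libraries of a group biological replicates.

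Of the 10 regulators, 8 had lower messenger levels in every library of every knockdown than in any control library, namely ATF3, DDIT3, CEBPB, CEBPG, TRIB3, CHAC1, NUPR1 and PPP1R15A. ATF4 ran the other way, with higher levels in every knockdown library than in any control library. Over all genes tested, 13.3% lay below every control library in every knockdown library, and 11.8% lay above. ATF5 lay above control in siNAE1 and siURM1 and below control in siUBE2M. In bulk RNA, less RNA per cell and fewer cells expressing a gene cannot be told apart.

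A gene is called a differentially expressed gene (DEG) at a Benjamini-Hochberg adjusted p under 0.05 and a log2 fold change of 1 or more in either direction, and is said to have risen or fallen at the same adjusted p without the fold threshold. Against control, 7 regulators were DEGs in siNAE1, 6 in siUBE2M and 6 in siURM1, all of them lower. Over all genes tested, 8.61% were DEGs lower in siNAE1, 3.89% in siUBE2M and 4.73% in siURM1, and 5.30%, 3.22% and 2.89% were DEGs higher. By the adjusted p alone, 8 regulators fell and 2 rose in siNAE1, 9 fell and 1 rose in siUBE2M, and 8 fell and 0 rose in siURM1. With edgeR in siURM1, 9 regulators had an unadjusted p under 0.05 (48.7% of all genes), and DESeq2 also called 6 DEGs there. The matching shares of all genes that fell were 27.1%, 22.6% and 20.8%, and 27.6%, 22.7% and 20.8% rose. The median log2 fold change of the 10 regulators was -1.85 in siNAE1, -1.22 in siUBE2M and -1.16 in siURM1, and that of all genes was -0.0021, 0.0075 and -0.021. ATF3, CEBPB, CEBPG, TRIB3, CHAC1 and NUPR1 were DEGs in all 3 knockdowns, all lower, and over all genes tested 1.39% were DEGs lower in all 3 and 0.501% DEGs higher. The 3 comparisons share the control libraries, so these counts are not independent of each other. When the test was made against the fold threshold itself (glmTreat), 3 regulators remained in siURM1, with CEBPG, CHAC1 and NUPR1 no longer called, and CHAC1 was lost in siUBE2M. The share of all genes called by glmTreat was not counted.

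**Figure D1:**
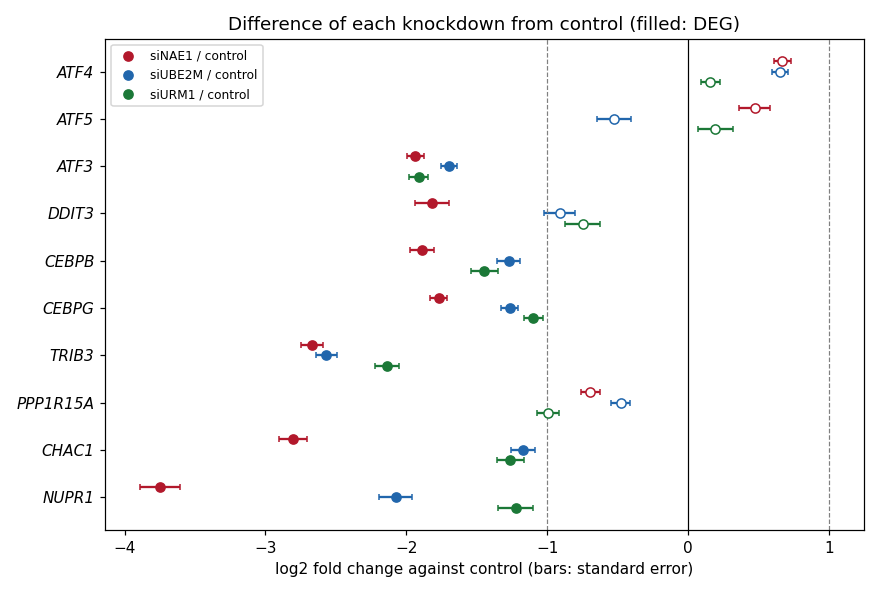
Log2 fold change of each regulator against control (x axis) for siNAE1, siUBE2M and siURM1, with bars for the standard error, filled points for DEGs and dashed lines at the fold threshold. The points of 8 genes lie left of 0 in all 3 knockdowns, the lowest being NUPR1 in siNAE1 at -3.75, and those of ATF4 lie right of 0.

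The promoters of the regulators were searched for a pair of sequences through which bZIP proteins are known to act, since 8 of these genes fell against control in all 3 knockdowns. RefSeq windows on GRCh38.p14, from 250 bases before to 50 bases after each start that RefSeq lists, were at hand for 9 of the 10 genes, without NUPR1. A RefSeq start need not be the gene start of the deposited table, and the matches of CHAC1 and CEBPG lie inside the gene as that table gives it. The composite element TGATGNAA, which ATF4 binds together with a C/EBP protein, was found on either strand in 3 of these 9 genes and 3 of their 18 windows, against 4.46% of all 27305 genes and 3.62% of all 35116 windows. The cAMP response element TGACGTCA, an 8-letter palindrome, was found in 1 of the 9 genes and 1 of the 18 windows, against 2.25% of genes and 1.85% of windows. The 4 matches are shown on the plus strand with the element in capitals, and that of CHAC1 reads as the element on the minus strand.
ATF3, chr1:212565205-212565234: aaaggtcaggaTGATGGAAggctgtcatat
CHAC1, chr15:40953251-40953280: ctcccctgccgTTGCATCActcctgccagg
CEBPG, chr19:33374060-33374089: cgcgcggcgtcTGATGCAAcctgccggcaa
PPP1R15A, chr19:48872352-48872381: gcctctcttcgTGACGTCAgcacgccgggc
The 9 genes had more windows per gene than genes in general, which gives more chances of a match. A match says only that these letters are in the window, and the overlap of these windows with bound protein was not measured. The 3 genes with the composite element were DEGs in all 3 knockdowns, as were CEBPB and TRIB3, whose windows held neither element.

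ATF4 (ENSG00000128272, chr22:39519695-39522685, plus strand, coordinates of the deposited table on GRCh38) had the highest level per length of the 10 genes. Its CPM was 848, 894 and 813 in the control libraries, 1289, 1397 and 1374 in siNAE1, 1327, 1270 and 1421 in siUBE2M, and 926 and 974 in siURM1. All 8 knockdown libraries stood above the 3 controls, and both siURM1 libraries lay between the controls and the other knockdowns. ATF4 rose by a log2 fold change of 0.67 ± 0.06 in siNAE1 (1.59-fold, adjusted p = 2.4e-11) and 0.65 ± 0.06 in siUBE2M (1.57-fold, adjusted p = 8.5e-11). The difference of 0.16 ± 0.07 in siURM1 did not pass (adjusted p = 0.051, 95% interval 0.030 to 0.29). That value stood at the threshold, with 8 of 20 alternative settings under it and an adjusted p from 0.026 to 0.26 among the settings that test against no change.

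ATF5 (ENSG00000169136, chr19:49928702-49933935, plus strand), a bZIP factor whose translation is also favoured when eIF2 is phosphorylated, was the only regulator to change in opposite directions. Its CPM was 13.7, 13.5 and 14.5 in control, 19.9, 17.9 and 20.1 in siNAE1, 10.2, 9.18 and 9.62 in siUBE2M, and 16.3 and 15.4 in siURM1. The 4 groups did not overlap, with siUBE2M below control and siNAE1 above it. ATF5 rose by 0.47 ± 0.11 in siNAE1 (adjusted p = 0.00054) and fell by 0.53 on the log2 scale in siUBE2M (SE 0.12, adjusted p = 0.00043). In siURM1 the difference was 0.19 ± 0.12 (adjusted p = 0.22). The gene overlaps NUP62 on the opposite strand, which had 1843 to 2359 counts per library against 137 to 261 for ATF5, and the strand setting of the counting is not stated, so reads of the pair may not be fully separated.

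ATF3 (ENSG00000162772, chr1:212565334-212620777, plus strand), a stress-induced bZIP factor that can repress or activate, fell in each knockdown. Its CPM was 440, 440 and 424 in control, 114, 116 and 111 in siNAE1, 135, 131 and 136 in siUBE2M, and 114 and 118 in siURM1. The knockdown libraries all lay far below the controls, and those of siUBE2M lay above those of the other knockdowns. The log2 fold change was -1.94 ± 0.06 in siNAE1 (adjusted p = 9.8e-23), -1.70 ± 0.06 in siUBE2M (adjusted p = 6.1e-21) and -1.91 ± 0.07 in siURM1 (adjusted p = 1.9e-20). These differences left 26.1%, 30.8% and 26.6% of the control mean.

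DDIT3 (ENSG00000175197, chr12:57516588-57521737, minus strand) encodes CHOP, a C/EBP family factor linked to cell death under lasting stress. Its CPM was 40.8, 43.4 and 37.4 in control, 14.4, 9.16 and 10.9 in siNAE1, 22.7, 19.3 and 22.8 in siUBE2M, and 24.4 and 23.8 in siURM1. The siNAE1 libraries were the lowest and did not overlap the other knockdowns. DDIT3 showed log2 fold changes of -1.82 ± 0.12 in siNAE1 (adjusted p = 3.7e-14), -0.91 ± 0.11 in siUBE2M (adjusted p = 3.9e-08) and -0.75 ± 0.12 in siURM1 (adjusted p = 9e-06), so that DDIT3 fell in all 3 but was a DEG only in siNAE1. On the opposite strand it overlaps MARS, with 3377 to 9338 counts per library, and MBD6, with 684 to 1192, against 122 to 705 for DDIT3. On the same strand it overlaps MIR616, with 0 to 15 counts, and AC022506.1, with 0. The part of these overlaps in the DDIT3 values was not tested.

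CEBPB (ENSG00000172216, chr20:50190734-50192689, plus strand), a C/EBP activator and dimer partner of ATF4 and CHOP, had a CPM of 89.4, 97.0 and 91.0 in control. In siNAE1 it was 25.7, 24.0 and 25.3, in siUBE2M 35.4, 38.0 and 41.2, and in siURM1 30.8 and 37.2. All knockdown libraries lay below control, and the siUBE2M and siURM1 ranges overlapped. CEBPB fell in each, with log2 fold changes of -1.89 ± 0.09 (adjusted p = 4.4e-18), -1.27 ± 0.08 (adjusted p = 4.5e-14) and -1.45 ± 0.09 (adjusted p = 1.1e-13) in siNAE1, siUBE2M and siURM1. An antisense transcript, CEBPB-AS1, overlaps the gene and had 9 to 37 counts per library, against 282 to 1577 for CEBPB.

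CEBPG (ENSG00000153879, chr19:33373330-33382686, plus strand), a C/EBP protein that lacks an activation domain and dimerises with ATF4, followed the same direction. Its CPM was 335, 345 and 355 in control, 97.2, 107 and 98.8 in siNAE1, 147, 140 and 145 in siUBE2M, and 156 and 167 in siURM1. The groups formed 4 separate ranges, with siNAE1 lowest and siURM1 highest among the knockdowns. Log2 fold changes of CEBPG were -1.77 ± 0.06 (adjusted p = 4.1e-21), -1.26 ± 0.06 (adjusted p = 3.8e-17) and -1.10 ± 0.07 (adjusted p = 3.3e-14). These correspond to 29.3%, 41.6% and 46.7% of the control mean.

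**Figure D2:**
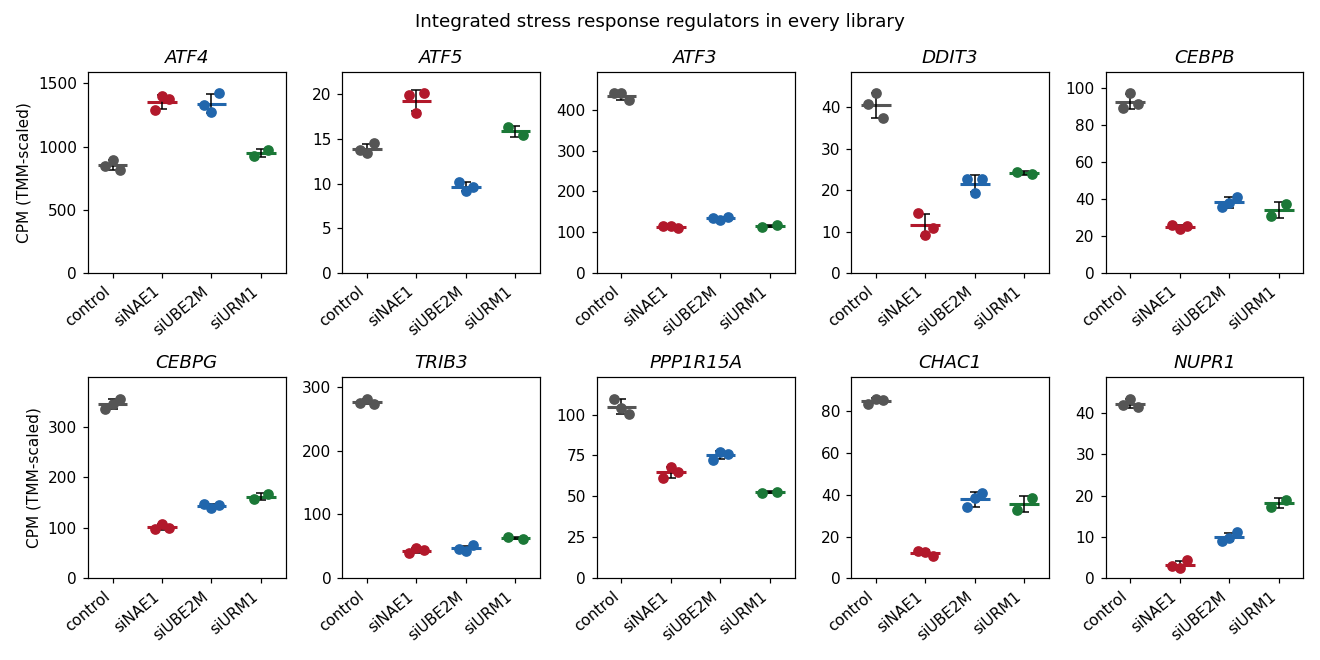
CPM (TMM-scaled, y axis from 0) of the 10 regulators in each of the 11 libraries, with a point per library, a coloured line at the group mean and a black bar for the SD. The control points lie above every knockdown point in 8 panels and below them for ATF4, and for ATF5 they lie between siUBE2M and the other knockdowns.

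TRIB3 (ENSG00000101255, chr20:362835-397559, plus strand) encodes a pseudokinase that binds ATF4 and CHOP and dampens their activity. Its CPM was 275, 281 and 273 in control, 39.0, 46.8 and 44.3 in siNAE1, 45.7, 42.6 and 51.6 in siUBE2M, and 64.3 and 61.5 in siURM1. The knockdown libraries all lay far below the controls, and siURM1 stood above the other knockdowns, whose ranges overlapped. TRIB3 fell with log2 fold changes of -2.67 ± 0.08 in siNAE1 (6.37-fold lower, adjusted p = 2.4e-23), -2.57 ± 0.08 in siUBE2M (5.93-fold lower, adjusted p = 8.6e-23) and -2.14 ± 0.08 in siURM1 (4.40-fold lower, adjusted p = 3.6e-19). TRIB3 had the largest fall of the 10 genes in siUBE2M and in siURM1, where it ranked 33 and 177 from the lowest among the 18368 genes tested.

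PPP1R15A (ENSG00000087074, chr19:48872392-48876057, plus strand) encodes GADD34, which directs protein phosphatase 1 to eIF2 and so reverses the signal. Its CPM was 110, 104 and 100 in control, 61.5, 67.9 and 64.9 in siNAE1, 72.4, 76.9 and 76.2 in siUBE2M, and 52.2 and 52.9 in siURM1. Here the siURM1 libraries were the lowest, unlike for the other 7 genes that fell, whose log2 fold change was lowest in siNAE1. For ATF3 that order was not resolved from siURM1, nor for TRIB3 from siUBE2M, since the interval of the difference included 0. The log2 fold change was -0.69 ± 0.07 in siNAE1 (adjusted p = 4.5e-10), -0.48 ± 0.07 in siUBE2M (adjusted p = 7.8e-07) and -0.996 ± 0.08 in siURM1 (adjusted p = 9.4e-12), just short of the fold threshold. Without control replicate 3, without siURM1 replicate 2 or with the replicate number as a block it passed that threshold, at -1.014, -1.002 and -1.003.

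CHAC1 (ENSG00000128965, chr15:40952962-40956519, plus strand) encodes an enzyme that degrades glutathione. Its CPM was 83.7, 86.1 and 85.7 in control, 12.9, 12.7 and 10.8 in siNAE1, 34.0, 38.3 and 40.9 in siUBE2M, and 32.7 and 38.4 in siURM1. The siNAE1 libraries lay far below the other knockdowns, whose ranges overlapped. The log2 fold change was -2.80 ± 0.10 in siNAE1 (6.99-fold lower, adjusted p = 3.1e-21), -1.17 ± 0.08 in siUBE2M (adjusted p = 6.6e-13) and -1.26 ± 0.10 in siURM1 (adjusted p = 3.4e-12).

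NUPR1 (ENSG00000176046, chr16:28532708-28539174, minus strand), a small stress-induced chromatin protein, showed the largest fall of the 10 genes in siNAE1. Its CPM was 41.9, 43.5 and 41.5 in control, 2.84, 2.45 and 4.31 in siNAE1, 9.13, 9.77 and 11.2 in siUBE2M, and 17.3 and 19.0 in siURM1. The 4 groups formed separate ranges, in the order siNAE1, siUBE2M, siURM1 and control. NUPR1 had log2 fold changes of -3.75 ± 0.14 in siNAE1 (13.5-fold lower, adjusted p = 3.5e-20), -2.08 ± 0.12 in siUBE2M (4.22-fold lower, adjusted p = 2.3e-15) and -1.22 ± 0.12 in siURM1 (2.33-fold lower, adjusted p = 1.6e-09). The siNAE1 values rest on 35 to 48 counts per library, and the gene ranked 31 from the lowest of all genes tested there. With limma on log2(FPKM + 1) the siNAE1 value was -2.44.

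The knockdowns were then compared with each other, which tests directly whether a regulator changed more in one than in another. Between siNAE1 and siURM1, 3 regulators were DEGs (6.76% of all genes tested), and between siNAE1 and siUBE2M 2 were DEGs (7.84%). Between siUBE2M and siURM1, 0 were DEGs (5.41%) by edgeR and by DESeq2, with 7 at an unadjusted p under 0.05 (43.6% of all genes). Without the fold threshold, 8, 8 and 6 of the 10 regulators differed in these comparisons, beside 38.6%, 44.3% and 35.0% of all genes. All 10 passed in at least 1 of these 3 comparisons, as did 62.2% of all genes.

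NUPR1 was lower in siNAE1 than in siURM1 by a log2 difference of -2.53 ± 0.16 (adjusted p = 8.4e-14) and than in siUBE2M by -1.67 ± 0.16 (adjusted p = 5.7e-10). It was lower in siUBE2M than in siURM1 by -0.85 ± 0.14 (adjusted p = 8.2e-06). With limma on log2(FPKM + 1), a scale that understates changes of low genes, NUPR1 differed between siNAE1 and siURM1 by -1.43 and between siNAE1 and siUBE2M by -0.82, no longer a DEG. CHAC1 was lower in siNAE1 than in siURM1 by -1.54 ± 0.11 (adjusted p = 9e-13) and than in siUBE2M by -1.63 ± 0.10 (adjusted p = 2.6e-14). Both effectors were therefore lower in siNAE1 than in either other knockdown. DDIT3 was lower in siNAE1 than in siURM1 by -1.07 ± 0.14 (adjusted p = 1.4e-07), and without siNAE1 replicate 2 that difference was -0.92 and no longer a DEG, nor was it with glmTreat. Against siUBE2M it differed by -0.91 ± 0.13 (adjusted p = 4.6e-07), and without siNAE1 replicate 1 by -1.11, which would be a DEG. ATF5, which moved in opposite directions, was higher in siNAE1 than in siUBE2M by 0.998 ± 0.12 (adjusted p = 2e-08), just under the fold threshold, and lower in siUBE2M than in siURM1 by -0.72 ± 0.13 (adjusted p = 4.4e-05).

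ATF3 was lower in siNAE1 than in siUBE2M by -0.24 ± 0.06 (adjusted p = 0.0013) and higher in siUBE2M than in siURM1 by 0.21 ± 0.07 (adjusted p = 0.011), the second of which did not pass without siURM1 replicate 1 (0.19, adjusted p = 0.11, the highest of a range from 0.0023). TRIB3 was lower than in siURM1 by -0.53 ± 0.09 in siNAE1 (adjusted p = 7e-06) and by -0.43 ± 0.08 in siUBE2M (adjusted p = 0.00014). CEBPG was lower in siNAE1 than in siUBE2M by -0.51 ± 0.06 (adjusted p = 5.2e-08) and than in siURM1 by -0.67 ± 0.07 (adjusted p = 2e-09). CEBPB was lower in siNAE1 by -0.61 ± 0.09 (adjusted p = 1.2e-06) and -0.44 ± 0.10 (adjusted p = 0.00063) in the same comparisons. Without siURM1 replicate 2, its difference between siNAE1 and siURM1 was -0.30 and did not pass (adjusted p = 0.059, the highest of a range from 0.00023). PPP1R15A was lower in siURM1 than in siNAE1, as a siNAE1 to siURM1 difference of 0.30 ± 0.08 (adjusted p = 0.0032), and than in siUBE2M, by 0.52 ± 0.08 (adjusted p = 5.4e-06). It was also lower in siNAE1 than in siUBE2M (adjusted p = 0.014), by -0.25 to -0.18 over the alternative settings. That difference did not pass without siNAE1 replicate 1 (adjusted p = 0.072). ATF4 was higher in siNAE1 than in siURM1 by 0.51 ± 0.07 (adjusted p = 2e-07) and in siUBE2M than in siURM1 by 0.50 ± 0.07 (adjusted p = 4.4e-07).

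For some pairs the interval of the difference included 0. For ATF4, siNAE1 and siUBE2M differed by 0.015 (95% interval -0.099 to 0.13), and for ATF3, siNAE1 and siURM1 by -0.024 (-0.15 to 0.11). TRIB3 differed between siNAE1 and siUBE2M by -0.10 (-0.26 to 0.054). CHAC1 differed between siUBE2M and siURM1 by 0.090 (-0.10 to 0.28), CEBPB by 0.17 (-0.017 to 0.36) and DDIT3 by -0.16 (-0.41 to 0.086). A further 2 differences did not pass although their intervals lay to one side of 0. CEBPG differed between siUBE2M and siURM1 by -0.17 (-0.30 to -0.034, adjusted p = 0.054, from 0.027 to 0.33 over the settings that test against no change), and it passed with DESeq2. ATF5 differed between siNAE1 and siURM1 by 0.28 (0.038 to 0.52, adjusted p = 0.072, from 0.020 to 0.28), and it passed with limma on log2 FPKM.

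**Figure D3:**
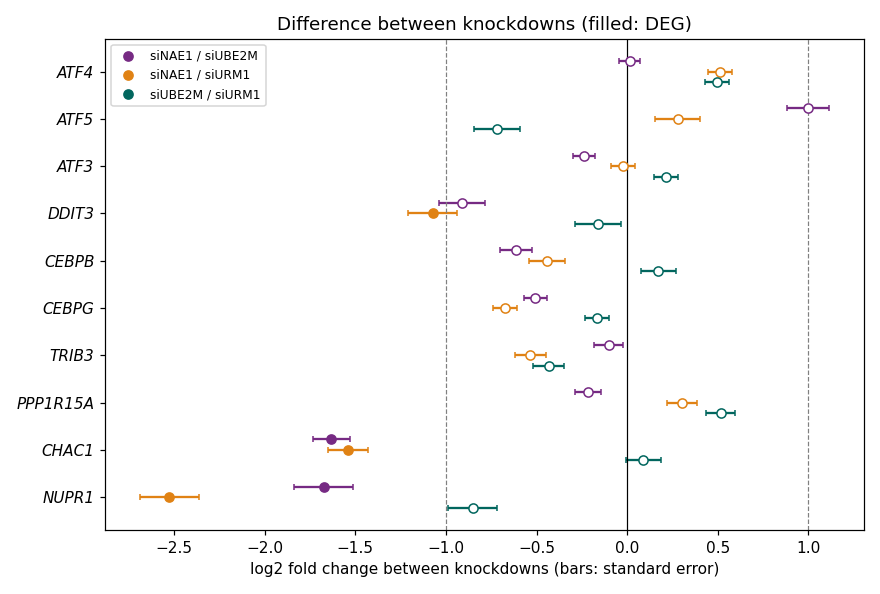
Log2 difference of each regulator between pairs of knockdowns (x axis), with bars for the standard error, filled points for DEGs and dashed lines at the fold threshold. The filled points are NUPR1 and CHAC1 in both comparisons with siNAE1 and DDIT3 in siNAE1 against siURM1.

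Levels were compared between genes per length, as FPKM, which divides the scaled count by the listed gene length. In control, the mean FPKM was 336 ± 17 (SD) for ATF4, 107 ± 2.3 for ATF3, 79.9 ± 1.5 for TRIB3 and 77.6 ± 2.5 for CEBPG. Then came CEBPB at 46.9 ± 2.2, CHAC1 at 41.0 ± 0.81, PPP1R15A at 33.6 ± 1.4 and DDIT3 at 30.7 ± 2.3, followed by NUPR1 at 7.39 ± 0.21 and ATF5 at 4.66 ± 0.18. The libraries of TRIB3 and CEBPG overlapped, as did those of PPP1R15A and DDIT3, and the other neighbours in this order did not. ATF4 headed the order in all 4 groups.

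In the knockdowns more neighbours in the order overlapped in siUBE2M and siURM1 than in control. TRIB3, at rank 3 in control, stood at 12.5 ± 1.1 FPKM in siNAE1, where its libraries overlapped those of CEBPB, at 13.4 ± 1.4 in siUBE2M and at 18.2 ± 0.56 in siURM1. In siUBE2M the ranges of CEBPB, CHAC1, DDIT3 and TRIB3 each overlapped the next, and in siURM1 so did those of DDIT3, TRIB3, CEBPB, CHAC1 and PPP1R15A, between mean levels of 18.3 and 16.9 FPKM, so neighbours in these runs cannot be ordered. PPP1R15A, at rank 7 in control, was at rank 4 in siNAE1 (20.7 ± 1.0) and siUBE2M (24.0 ± 0.75), with libraries apart from both neighbours. NUPR1 took the last place in each knockdown, at 0.556 ± 0.17, 1.75 ± 0.19 and 3.17 ± 0.21 FPKM.

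ATF4 made up 43.1% to 44.7% of the summed FPKM of the 10 genes in the control libraries. That share was 81.1% to 82.3% in siNAE1, 76.1% to 76.9% in siUBE2M and 70.0% in both siURM1 libraries. The summed FPKM of the other 9 genes was 423 to 438 in control, 116 to 119 in siNAE1, 156 to 168 in siUBE2M and 157 to 165 in siURM1. The share of ATF4 and the sum of the other genes thus separated control from every knockdown library.

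**Figure D4:**
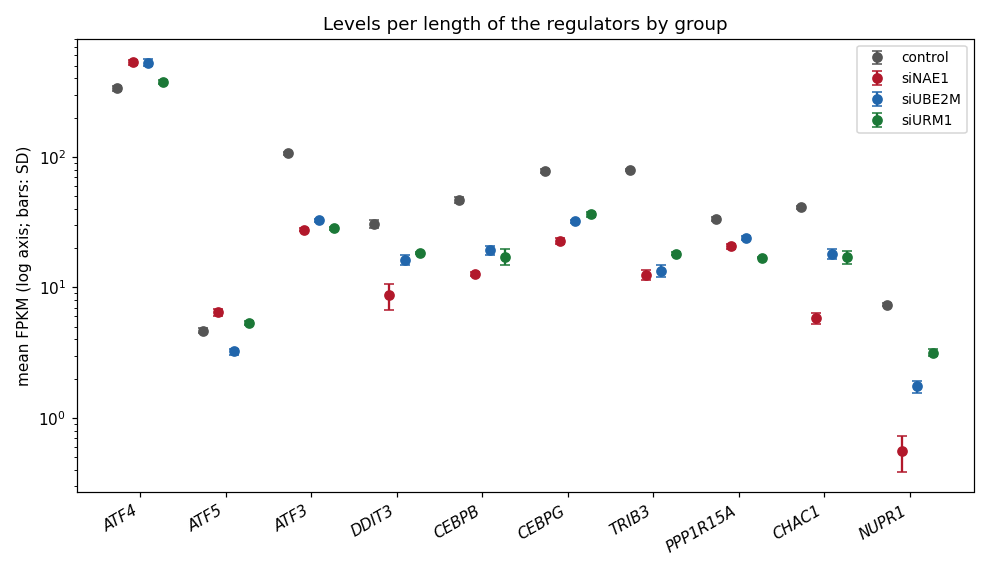
Mean FPKM of each regulator by group on a log axis, with bars for the SD over 3 libraries, or 2 in siURM1. ATF4 stays at the top in every group, and NUPR1 spans the widest range, from 7.39 in control to 0.556 in siNAE1.

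The messengers of genes upstream and downstream of the regulators were counted from lists chosen by function. Earlier results of these data were known when the lists were chosen, so the counts are not an independent test. Upstream, 0 of 9 eIF2 kinases and their regulators were DEGs in any knockdown by edgeR or DESeq2. By the adjusted p alone, 4 fell and 2 rose in siNAE1, 1 fell and 3 rose in siUBE2M, and 3 fell and 2 rose in siURM1, with 6, 5 and 5 at an unadjusted p under 0.05. For these and the following lists, the shares of all genes are those given above, 27.1% falling and 27.6% rising in siNAE1, 22.6% and 22.7% in siUBE2M, and 20.8% each in siURM1. An unadjusted p under 0.05 was held by 59.0%, 51.6% and 48.7% of all genes in the 3 knockdowns. Named after their values were seen, IMPACT, an inhibitor of GCN2 activation, fell by 0.83, 0.77 and 0.72 on the log2 scale in the 3 knockdowns, and EIF2AK4, which encodes GCN2, fell by 0.33 in siNAE1 (adjusted p = 0.00062) and rose by 0.53 in siUBE2M (adjusted p = 6.1e-07). EIF2AK3, which encodes PERK, differed by -0.12, -0.22 and -0.38, and passed the test in siURM1 (adjusted p = 0.0099).

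Among 12 genes of eIF2, its exchange factor eIF2B and its phosphatases, 0, 0 and 1 were DEGs in siNAE1, siUBE2M and siURM1 by both edgeR and DESeq2, with 8, 8 and 9 at an unadjusted p under 0.05. Without the fold threshold, 1 fell and 7 rose, 2 fell and 4 rose, and 4 fell and 4 rose. The DEG was PPP1CC, a catalytic subunit of protein phosphatase 1, at 1.01 ± 0.07 in siURM1, which was 0.99 and below the fold threshold without control replicate 1. Of 5 genes of the ubiquitin ligase that targets ATF4 (BTRC, FBXW11, SKP1, CUL1 and RBX1), 0 were DEGs by either tool, with 4, 3 and 3 at an unadjusted p under 0.05. By the adjusted p alone 1 fell and 3 rose in siNAE1, 1 fell and 2 rose in siUBE2M, and 0 fell and 2 rose in siURM1.

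Downstream, 36 known ATF4 targets outside the 10 regulators were mostly lower. DEGs lower numbered 18 in siNAE1, 8 in siUBE2M and 7 in siURM1, with 0 DEGs higher, beside 8.61%, 3.89% and 4.73% of all genes that were DEGs lower. Without the fold threshold, 33, 29 and 33 of the 36 fell, and 0, 2 and 1 rose. Their median log2 fold changes were -1.01, -0.62 and -0.58. FGF21, a secreted metabolic hormone, had the lowest mean change, with 84, 97 and 75 counts in control, 2, 6 and 1 in siNAE1, 7, 8 and 11 in siUBE2M, and 8 and 7 in siURM1. INHBE, an activin subunit, followed, at 96.9 to 104 CPM in control, 11.2 to 12.4 in siNAE1, 10.8 to 13.9 in siUBE2M and 12.7 to 13.1 in siURM1. Its log2 fold changes were -3.11 ± 0.10, -3.08 ± 0.10 and -2.96 ± 0.11 (adjusted p = 2e-22, 4.6e-22 and 6.4e-20).

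The targets with the highest mean change were CBS and ALDH18A1. CBS, which makes cystathionine, differed by -0.22 ± 0.22, 0.13 ± 0.22 and 0.26 ± 0.24 and passed no test, with a CPM of 79.6 to 130 in control that overlapped every knockdown. ALDH18A1, an enzyme of proline synthesis, differed by 0.096 ± 0.06 in siNAE1, fell by 0.24 in siUBE2M (adjusted p = 0.0013) and rose by 0.21 in siURM1 (adjusted p = 0.0088).

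Of 6 genes through which CHOP is known to act on cell death, 0 were DEGs by edgeR or DESeq2 in any knockdown, with 5, 4 and 5 at an unadjusted p under 0.05. By the adjusted p alone, 3 fell and 2 rose in siNAE1, 2 fell and 2 rose in siUBE2M, and 3 fell and 2 rose in siURM1. Named after their values were seen, genes of this list moved both ways. BCL2L11, which encodes the death activator BIM, rose by 0.65, 0.71 and 0.89 on the log2 scale, and without control replicate 3 it reached 1.00 in siURM1 and counted as a DEG. ERO1A, an oxidase of the endoplasmic reticulum, rose by 0.24, 0.37 and 0.71. PMAIP1, which encodes the death activator NOXA, fell by 0.38, 0.97 and 0.38, and BBC3, which encodes PUMA, fell by 0.34 in siNAE1 and 0.32 in siURM1 and differed by -0.042 in siUBE2M. TNFRSF10B, a death receptor, fell by 0.68 in siURM1 and differed by -0.083 and -0.064 in siNAE1 and siUBE2M. The survival gene BCL2, which CHOP is known to repress, fell by 0.67 in siNAE1 and 0.51 in siUBE2M and differed by -0.073 in siURM1.

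The other bZIP factors had no common direction. Of 27 tested, 4 were DEGs lower and 5 higher in siNAE1, 2 lower and 1 higher in siUBE2M, and 3 lower and 4 higher in siURM1, beside shares of all genes from 2.89% to 8.61% in either direction. XBP1, the factor of the endoplasmic reticulum stress response, was a DEG in all 3 knockdowns at -1.42 ± 0.06, -1.26 ± 0.06 and -1.50 ± 0.07. JDP2, a repressor that dimerises with ATF3 and JUN proteins, fell by 1.95 (adjusted p = 5.8e-13), 0.66 (adjusted p = 7.5e-05) and 0.90 (adjusted p = 6.7e-06) on the log2 scale. The immediate early genes JUNB and FOS had the highest mean changes. JUNB rose by 1.59 ± 0.12 in siNAE1, 0.60 ± 0.13 in siUBE2M and 2.34 ± 0.12 in siURM1, and FOS by 1.99 ± 0.15 in siNAE1 and 2.05 ± 0.16 in siURM1, with 0.36 ± 0.17 in siUBE2M (adjusted p = 0.081).

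**Figure D5:**
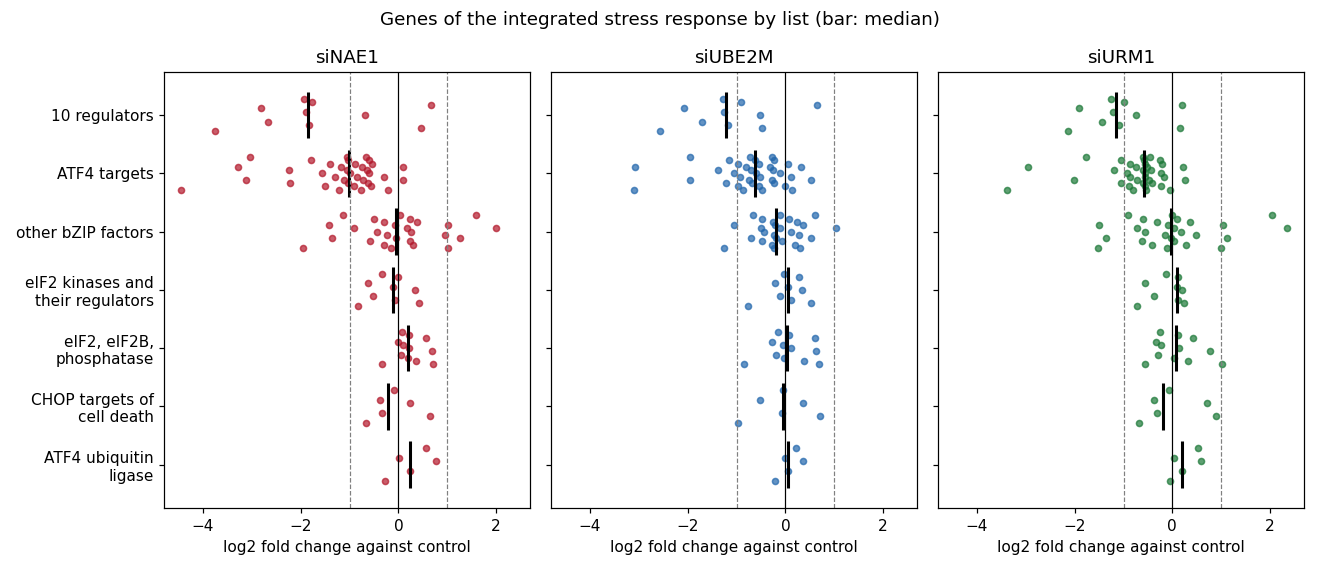
Log2 fold change against control (x axis) of the tested genes of each list in siNAE1, siUBE2M and siURM1, with a point per gene, a black bar at the median of the list and dashed lines at the fold threshold. The bars of the 10 regulators lie at -1.85, -1.22 and -1.16 and those of the ATF4 targets at -1.01, -0.62 and -0.58, while the medians of the other lists lie nearer to 0.

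The genes with the profile most like that of ATF4 and of DDIT3 were found over the 11 libraries, by the root mean square difference of log2 CPM after centring each gene on its own mean, among 10468 genes with a mean CPM of at least 10. For ATF4 these were NXF1, PSME1, METAP2, SAFB and GLT8D1, at 0.063 to 0.077 log2 units. Their log2 fold changes ran from 0.54 to 0.67 in siNAE1, 0.48 to 0.61 in siUBE2M and 0.059 to 0.12 in siURM1. None of the other 9 regulators was near ATF4, the closest being ATF5 at 0.51 and the farthest NUPR1 at 1.69. For DDIT3 the closest were JDP2, NOXA1, STOML1, TCTN1 and DDR2, at 0.18 to 0.19. Among the regulators, CEBPG at 0.27 ranked 46 and CEBPB at 0.31 ranked 94 of these 10468 genes. The others were farther, with CHAC1 at rank 396, ATF3 at 818, PPP1R15A at 1453 and TRIB3 at 3804. NUPR1 ranked 5869, ATF5 8966 and ATF4 9466.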

How the data were processed

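Per the labels and the study's methods, poly(A) RNA was sequenced by a dUTP protocol as paired reads, trimmed with fastp, aligned to GRCh38 with HISAT2 2.0.5 and counted with featureCounts 1.5.0-p3. The strand setting of the counting is not given in the sources used here. The deposited counts are whole fragments per gene without normalization, and the deposited FPKM were computed by the authors. Total counts per library were 11733163 to 16321391, so levels of genes with few counts are less precise.

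Here counts were fitted in R 4.3.3 with edgeR 4.0.16 (filterByExpr, TMM, 1 quasi-likelihood fit of 4 groups, Benjamini-Hochberg adjustment over 18368 genes). SE is the absolute log2 fold change divided by the root of F, and intervals are 1.96 SE either way. Alternatives were RLE scaling, DESeq2 1.42.0, no filter, 2 groups per fit, the replicate number as a block, no fold threshold, glmTreat, leaving out each library, and limma 3.58.1 on log2 FPKM plus 1 or 0.1. In the main fit, p-values test a difference between group means against the spread between libraries within groups. That spread is estimated over all 4 groups with information shared across genes, so tests with siURM1 draw mostly on the other groups.

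The 10 members and all gene lists were chosen with earlier results of these data known. Named genes were all members, the targeted genes, each DEG of a list with 4 or fewer DEGs in any knockdown or otherwise its 2 lowest and 2 highest by mean log2 fold change, and the 5 genes closest in profile to ATF4 and to DDIT3. Others are marked as named after their values were seen. Promoter windows came from RefSeq, GRCh38.p14. No siRNA sequence was used.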

Additional observations from a re-analysis of the deposited data

Results flagged for a closer look

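By edgeR's contrast of one knockdown with another, all 10 regulators passed the adjusted p in at least 1 of the 3 comparisons, as did 62.2% of all genes. Those that were DEGs between knockdowns, or that had passed in opposite directions against control, are given here. NUPR1 differed between siNAE1 and siURM1 by -2.53 (adjusted p = 8.4e-14) and between siNAE1 and siUBE2M by -1.67 (adjusted p = 5.7e-10), on the log2 scale. CHAC1 differed between siNAE1 and siURM1 by -1.54 (adjusted p = 9e-13) and between siNAE1 and siUBE2M by -1.63 (adjusted p = 2.6e-14). DDIT3 differed between siNAE1 and siURM1 by -1.07 (adjusted p = 1.4e-07). ATF5 differed between siNAE1 and siUBE2M by 0.998 (adjusted p = 2e-08), just under the fold threshold, having risen against control in the first and fallen in the second.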

How the results depend on the processing

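Over 20 settings, values of the 10 regulators kept their direction and their side of the DEG thresholds in 1157 of the comparisons made, passed them anew in 32 (most of them without the fold threshold), lost them in 7 and changed sign in 4. The sign changes were in differences near 0. ATF4 between siNAE1 and siUBE2M was -0.00016 with 2 groups per fit, and leaving out each library gave -0.032 to 0.059, below 0 without siNAE1 replicate 2 or siUBE2M replicate 2. CHAC1 between siUBE2M and siURM1 was -0.025 without siURM1 replicate 1, the lowest of a range that reached 0.20. By the adjusted p alone and setting glmTreat aside, 3 differences between knockdowns that had passed were lost, each without 1 library, namely ATF3 between siUBE2M and siURM1, CEBPB between siNAE1 and siURM1, and PPP1R15A between siNAE1 and siUBE2M (-0.18 without siNAE1 replicate 1). Gained were CEBPG between siUBE2M and siURM1 with DESeq2, with limma at either pseudocount and without siNAE1 replicate 3, ATF5 between siNAE1 and siURM1 with limma at either pseudocount, and ATF4 in siURM1 against control under 8 settings. Same-numbered libraries of different groups had correlated deviations of -0.37 to 0.39 over 15 pairs, and others of -0.44 to 0.34 over 30. These ranges show no pairing by replicate number. They cannot exclude one, because deviations within a group sum to 0 and the pairs are not independent. With the replicate number as a block, the DEG counts of the regulators were 7, 6 and 7 against control, PPP1R15A being added in siURM1.

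Without a fold threshold, which by construction calls more genes, the regulators called were 10 in siUBE2M against control, 8 in siNAE1 against siURM1, 8 in siNAE1 against siUBE2M and 6 in siUBE2M against siURM1. In siNAE1, siUBE2M and siURM1 the lists then held 6, 4 and 5 (eIF2 kinases), 8, 6 and 8 (eIF2, eIF2B and phosphatase), 21, 17 and 18 (other bZIP), 33, 31 and 34 (ATF4 targets), 5, 4 and 5 (CHOP targets) and 4, 3 and 2 (ATF4 ligase). The stricter glmTreat gave 3 regulators in siURM1, 0 of the eIF2 list in siURM1, 5 and 1 other bZIP factors in siNAE1 and siUBE2M, and 11, 5 and 4 ATF4 targets. The share of all genes called was not counted for glmTreat, for limma or for the fits without 1 library. With limma on log2 FPKM plus 1, which understates changes of low genes, 1 regulator was called in siNAE1 against siUBE2M, NUPR1 being lost at -0.82, and 0 of the eIF2 list in siURM1.

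Leaving out each library gave 7 to 7, 6 to 6 and 6 to 7 regulators against control, 2 to 3 in both comparisons with siNAE1, and 0 to 0 between siUBE2M and siURM1. For the lists with a changed count it gave 0 to 1 for eIF2 and 0 to 1 for CHOP targets in siURM1, 7 to 10, 2 to 3 and 6 to 8 other bZIP factors, and 16 to 19, 7 to 11 and 5 to 7 ATF4 targets. With 2 siURM1 libraries, leaving out either assumes that the other varies like the remaining groups.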
